A study of Mus musculus with 21 samples.

Results

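The tRNA genes that carry glycine to the GGG codon (GlyCCC, anticodon CCC) and to the GGA codon (GlyTCC, anticodon TCC in the gene) were followed through 3 kinds of library from mouse back skin. All genes whose name ends in GlyCCC or GlyTCC were taken. These were 27 of the 3283 tRNA gene loci in the Pol III counts, 12 GlyCCC and 15 GlyTCC, and 17 of the 1143 loci in the tRNA-seq counts, 9 GlyCCC and 8 GlyTCC. In RNA bisulphite sequencing, 176 of the 122736 cytosines with enough reads lay in them.

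A tRNA isoacceptor is the set of tRNAs that carry an amino acid to codons read by a given anticodon, and the genes of such a set can be identical copies or differ along the whole molecule. RNA polymerase III transcribes tRNA genes from an internal promoter, whose A and B boxes lie in the D and T arms of the tRNA itself. NSun2 is an RNA methyltransferase that makes 5-methylcytosine (m5C) at the junction of the variable loop and the T arm, at positions 48, 49 and 50. Dnmt2 methylates C38, next to the anticodon. Angiogenin, a ribonuclease, cuts tRNAs in the anticodon loop into a 5′ and a 3′ fragment, and tRNAs without m5C are known as better substrates for it.

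All tissue was back skin of male mice at postnatal day 25, when hair follicles enter the growing phase. The NSun2 -/- mice carry a gene trap insertion in every cell (German Gene Trap Consortium clone D014D11), on a mixed C57Bl6/J and CBA background, and wild-type (WT) mice came from the same breedings. RNA bisulphite sequencing and tRNA-seq each gave 4 WT and 4 NSun2 -/- libraries, which the study's methods describe as biological replicates. Pol III ChIP-seq gave 2 WT and 1 NSun2 -/- libraries and 1 input library of each genotype, from the pooled skin of 3 mice each, so its genotype differences have no replicate check.

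Exons of Nsun2 held 31, 23, 48 and 43 listed cytosines in the WT bisulphite libraries and 0 in each NSun2 -/- library. Keratinocyte and dermal fibroblast markers were listed in all 8 libraries, as were the muscle genes Acta1, Ckm and Myh4 and the adipocyte genes Adipoq and Fabp4. Plin1, another adipocyte gene, had 0 to 281 listed cytosines. Cd74, an antigen presentation gene, was also listed in all 8, with 12 to 35 listed cytosines in WT and 35 to 156 in NSun2 -/- libraries. Among melanocyte genes Dct had 0 to 167, Pmel 0 to 34 and Tyrp1 at most 2, and the leukocyte gene Ptprc had at most 3. The tRNA-seq libraries held between 17352126 and 36749727 counts. The WT bisulphite libraries listed 156018 to 196679 cytosines and the NSun2 -/- libraries 665049, 110324, 658169 and 385574, with a median of 16 or 17 reads at each. The numbers of listed cytosines per marker gene were not scaled to these totals. NSun2 -/- replicate 2 had both the fewest listed cytosines and, over the cytosines listed in all libraries, the highest mean share of unconverted reads, 13.6% against 4.03% to 7.15% in the other libraries.

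The sequences of the genes that carried the counts are shown first, since the whole comparison turns on which genes share which stretch. Capitals mark the anticodon, positions 34 to 36, and positions 48 to 50, numbered with the first paired nucleotide of the T arm as 49. The sequences were read from mm9, 5′ to 3′ on the strand of the gene. chr17.trna113 (chr17:26012033-26012103, plus strand, in an intron of Gm17480) is identical to chr6.trna317 (chr6:86353887-86353957, plus strand, intergenic). chr3.trna755 (chr3:96155090-96155160, minus strand) is identical to chr3.trna287 (chr3:96186834-96186904, plus strand), and both lie in introns of predicted genes. chr3.trna752 (chr3:96227956-96228026, minus strand), chr4.trna67 (chr4:32317225-32317295, plus strand), chr3.trna282 (chr3:96115177-96115247, plus strand), chr3.trna746 (chr3:96304932-96305003, minus strand) and chrX.trna121 (chrX:38579057-38579128, plus strand) are intergenic.
chr17.trna113, GlyCCC: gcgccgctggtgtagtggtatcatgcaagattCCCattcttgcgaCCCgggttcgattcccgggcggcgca
chr3.trna752, GlyCCC: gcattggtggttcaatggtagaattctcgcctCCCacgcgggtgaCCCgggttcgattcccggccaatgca
chr4.trna67, GlyCCC: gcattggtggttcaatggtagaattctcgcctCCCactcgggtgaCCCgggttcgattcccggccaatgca
chr3.trna755, GlyCCC: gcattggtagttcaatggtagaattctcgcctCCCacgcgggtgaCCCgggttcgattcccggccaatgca
chr3.trna282, GlyCCC: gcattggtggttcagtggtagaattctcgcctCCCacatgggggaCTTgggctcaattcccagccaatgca
chr3.trna746, GlyTCC: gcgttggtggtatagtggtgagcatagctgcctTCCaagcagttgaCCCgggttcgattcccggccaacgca
chrX.trna121, GlyTCC: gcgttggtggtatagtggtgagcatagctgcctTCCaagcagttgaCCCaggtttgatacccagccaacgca

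GlyCCC was thus not one tRNA. chr17.trna113 differed from chr3.trna752 at 23 of 71 bases, an identity of 67.6%, although both read the same codon. Base differences are counted from 1 at the 5′ end of the gene, with the base of the first-named gene first. chr4.trna67 differed from chr3.trna752 by T38G alone, and chr3.trna752 from chr3.trna755 by G9A alone. chr3.trna282 differed from chr3.trna752 at 9 bases, of which G15A lay within the first 25, and T47C and T48C fell on tRNA positions 49 and 50, so that chr3.trna282 has a cytosine at 48 alone. GlyTCC was more uniform: chr3.trna746, chr1.trna708, chr1.trna995, chr1.trna1004 and chr11.trna1824 were identical, and chr3.trna746 differed from chrX.trna121 by G50A, C55T, T59A and G63A. The B box letters GGTTCNA, searched on the strand of the gene, were present in 6 of the 7 GlyCCC genes with a located sequence, chr3.trna282 being the one without, and in 5 of 6 GlyTCC genes, chrX.trna121 being the one without. Over all 262 located tRNA genes the share was 85.9%.

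Pol III occupancy asks which copies are transcribed in skin. Reads were scaled to the total at tRNA genes (RPM), and binding required 10 or more reads in each WT library and an RPM of 2 or more times that of the WT input. 7 of the 27 genes were bound, against 6.7% of all loci: chr17.trna113, chr6.trna317 and chr3.trna287 of GlyCCC, and chr11.trna1824, chr3.trna746, chr1.trna708 and chr1.trna1004 of GlyTCC. chr17.trna113 had 175 and 358 reads in the WT libraries and 651 in the NSun2 -/- library, against 6 and 4 in the inputs. chr6.trna317 had 143, 223 and 414 reads, and chr11.trna1824, the most occupied GlyTCC gene, 262, 359 and 648. These 3 genes were far above input in all 3 libraries.

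**Figure D1:**
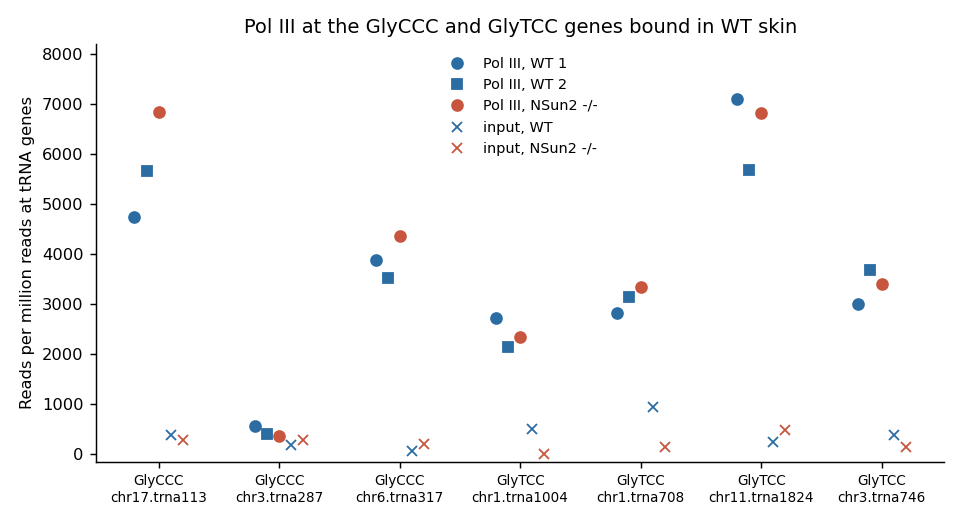
Pol III ChIP-seq reads in RPM (vertical axis) at the 7 GlyCCC and GlyTCC genes bound in WT skin, 1 mark per library; filled marks are Pol III libraries and crosses are inputs. chr3.trna287 lay close to its inputs, whereas each of the other genes had 2138 RPM or more in all Pol III libraries.

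The GlyCCC copies on chromosomes 3 and 4 had few reads. chr3.trna287 passed the call with 21 and 26 reads in WT and 34 in NSun2 -/- skin, against 3 and 4 in the inputs. Its identical copy chr3.trna755, with 9 and 21 reads in WT, was under the minimum number of reads in WT replicate 1. It also stayed below the required ratio to the WT input, with 244 and 333 RPM in WT against 314 RPM. chr3.trna752 had 7 and 18 reads in WT. chr4.trna67 had 5 reads in each Pol III library and 13 in the WT input, and chr3.trna282 had 1, 6 and 4. Among GlyTCC genes the libraries disagreed at chr1.trna995, with 9 and 187 reads in WT, and at chr1.trna998, with 8 and 195, and neither was called. Without WT replicate 1 both were, which gave 9 bound genes. chr1.trna1001 had 143 and 236 reads but 232 in the WT input.

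Summed over the 3 bound genes, GlyCCC occupancy was 9195 and 9614 RPM in WT and 11555 RPM in NSun2 -/- skin, a log2 ratio of 0.30. The 4 bound GlyTCC genes stood at 15651 and 14651 RPM in WT and 15887 RPM in NSun2 -/- skin, a log2 ratio of 0.07. The median log2 ratio over all 220 bound genes was 0.16, and with the libraries scaled to the bound genes the ratios became 0.08 for GlyCCC and -0.15 for GlyTCC, so the direction for GlyTCC depended on the scaling. With every gene summed, bound or not, GlyCCC had 10362 and 10723 RPM in WT and 12354 RPM in NSun2 -/- skin, against 5466 and 4143 RPM in the inputs, and GlyTCC had 20642, 25263 and 24739 RPM against 21234 and 8700 RPM. No test was possible with 1 NSun2 -/- library.

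Most tRNA-seq counts of GlyCCC were listed at other copies than those with most Pol III reads, but this differed by kind of read. Reads were placed as 5′ fragments (25 to 40 nt from the first base of a gene), as mature tRNA (at least 90% of the gene with a CCA end) or as 3′ fragments with a CCA end, and given as CPM (counts scaled to the total tRNA-seq counts of the library). chr17.trna113 and chr6.trna317 held 83.2% and 85.8% of GlyCCC Pol III reads in WT and 79.4% of GlyCCC 3′ CCA counts, but 31.1% of mature and 1.21% of 5′ fragment counts. chr3.trna752 and chr4.trna67, with 3.14% and 3.4% of the Pol III reads, held 65.4% of mature and 15.1% of 5′ fragment counts. chr3.trna282 held 81.7% of 5′ fragment counts with no mature and no 3′ CCA count in any library. Its fragments cannot be assigned to it: 82.3% of all GlyCCC 5′ fragment counts belonged to 368 sequences that the deposited table also lists at GlyGCC genes, and the authors had divided such reads among the matching loci. GlyGCC, another glycine isoacceptor, took 69.4% of all 5′ fragment counts, GlyCCC 2.67% and GlyTCC 0.0195%. No GlyTCC fragment sequence was shared with another isoacceptor. The deposited table lists the GlyTCC fragments at 2 genes, chr1.trna708 and chr3.trna746, although chr11.trna1824 is identical to them and had more Pol III reads.

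Over all its genes, the GlyCCC 5′ fragment level was 20927, 21301, 25196 and 26380 CPM in WT and 21003, 21596, 18074 and 18108 CPM in NSun2 -/- skin. The groups overlapped, and edgeR's quasi-likelihood test gave a log2 fold change of -0.04 (SE 0.20, n = 4 per genotype, Benjamini-Hochberg adjusted p = 0.87). GlyTCC 5′ fragments stood at 147, 264, 175 and 228 CPM in WT and at 92.1, 144, 151 and 73.7 CPM in NSun2 -/- skin. The highest NSun2 -/- library lay just above the lowest WT library, and the fold change of -0.63 (SE 0.28) missed the threshold with an edgeR adjusted p of 0.0903. In the same test 0% of 42 isoacceptors were called lower and 21.4% higher, with a median log2 fold change of 0.12. At an unadjusted p under 0.05, edgeR had 6 isoacceptors lower, and DESeq2 called 9 lower.

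Counting the sequences that belong to GlyCCC alone changed this result. They gave 3836, 5033, 5540 and 7225 CPM in WT and 3652, 2135, 1592 and 2938 CPM in NSun2 -/- skin. All 4 NSun2 -/- libraries were below all WT libraries, with a log2 fold change of -1.20 and an edgeR adjusted p of 0.0325. Most of these counts were fragments of chr3.trna752 and chr4.trna67, with 4520 CPM of a WT mean of 5408 CPM. The result for that group of genes, given next, is therefore not a separate one. With every isoacceptor counted by its own sequences only, 19% of the 42 were called lower, GlyTCC among them at -1.0 with the same edgeR adjusted p. The GlyTCC counts were the same as before, since it shared no sequence, so only the fit had changed. The median log2 fold change over all isoacceptors moved from 0.12 to -0.19. Scaled to all tRNA-seq counts instead, GlyTCC was at -0.82 in either counting.

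The GlyCCC genes were then divided by their first 25 bases, which separates the 4 kinds of fragment. chr3.trna752 and chr4.trna67, which share these bases, had 3377, 4340, 4885 and 6291 CPM of 5′ fragments in WT and 3062, 1594, 1226 and 2501 CPM in NSun2 -/- skin. The groups did not overlap, and the fold change of -1.16 (SE 0.37) was called lower with an edgeR adjusted p of 0.0417, in a test that called 14.9% of 87 such groups lower and 17.2% higher. Leaving out any library but WT replicate 1 or NSun2 -/- replicate 4 ended this call, with fold changes between -1.43 and -0.74. The call was also lost with sequences of 1 isoacceptor only (-0.96, edgeR adjusted p = 0.0811), although these held 95.3% of the group's counts. Without the filter on low counts it was lost as well (-0.97, edgeR adjusted p = 0.053). chr3.trna287 and chr3.trna755 had 387, 570, 563 and 848 CPM in WT and 403, 238, 227 and 423 CPM in NSun2 -/- skin, and their fold change of -0.86 (SE 0.36) was not called with an edgeR adjusted p of 0.0857.

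**Figure D2:**
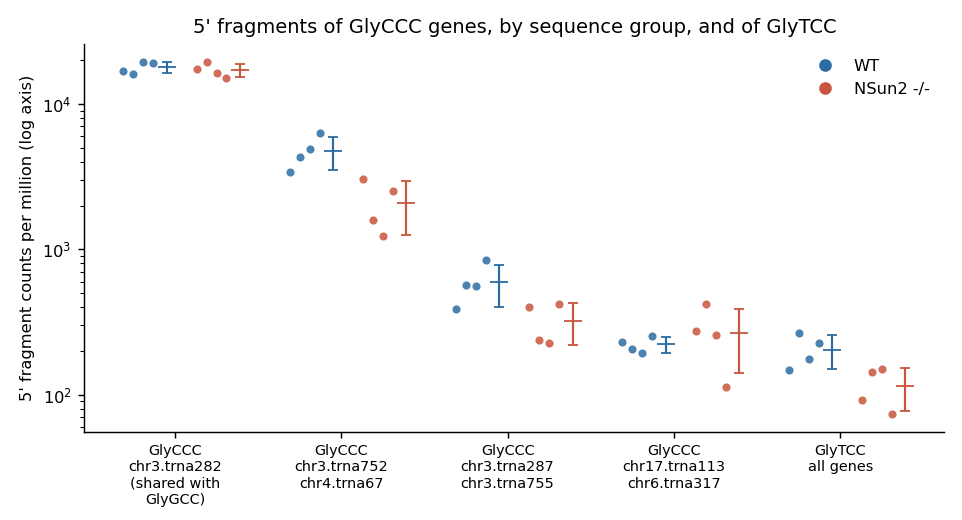
5′ fragment level in CPM (log axis) for the 4 groups of GlyCCC genes and for GlyTCC, 1 point per library; the bar marks the mean and the whiskers the SD over 4 libraries. The NSun2 -/- libraries lay below all WT libraries at chr3.trna752 and chr4.trna67 and overlapped them in the other groups.

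The copies with most Pol III reads showed no called change, and their difference from the other groups was not tested. chr17.trna113 and chr6.trna317 had 232, 207, 193 and 255 CPM in WT and 273, 420, 256 and 113 CPM in NSun2 -/- skin. The NSun2 -/- libraries lay on both sides of the WT range, and the log2 fold change was 0.22 (SE 0.32, edgeR adjusted p = 0.602). The fragments listed at chr3.trna282 ranged from 16185 to 19555 CPM in WT and from 15071 to 19344 CPM in NSun2 -/- skin, with a log2 fold change of -0.10 (SE 0.20, edgeR adjusted p = 0.691). Of these counts 0.201%, in 7 sequences, belonged to GlyCCC alone, with 12.7, 136, 74.0 and 75.0 CPM in WT and 5.34, 3.27, 3.38 and 1.99 CPM in NSun2 -/- skin. Counted by these sequences only, the groups did not overlap and the fold change was -4.24 (edgeR adjusted p = 0.00263). For GlyTCC, the fit over these groups gave -0.85 (SE 0.28) and an edgeR adjusted p of 0.0439 from the same counts that missed the threshold among isoacceptors, and leaving out any library but NSun2 -/- replicate 2 ended that call, as did each other setting tried except DESeq2.

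Among the GlyCCC groups, order by WT level put chr3.trna282 first, then chr3.trna752 and chr4.trna67, chr3.trna287 and chr3.trna755, and chr17.trna113 and chr6.trna317, with no overlap of neighbours in WT. In NSun2 -/- skin the last pair overlapped, with 227 to 423 CPM against 113 to 420 CPM. GlyTCC, at 147 to 264 CPM in WT, overlapped with chr17.trna113 and chr6.trna317.

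The leading 5′ fragment of each group shows where the tRNAs were cut. Capitals mark position 9, which is taken up again further on.
chr3.trna282, 31 nt: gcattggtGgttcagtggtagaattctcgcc
chr3.trna752 and chr4.trna67, 31 nt: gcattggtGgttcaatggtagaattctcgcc
chr3.trna287 and chr3.trna755, 32 nt: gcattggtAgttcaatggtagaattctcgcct
chr17.trna113 and chr6.trna317, 32 nt: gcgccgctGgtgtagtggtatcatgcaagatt
GlyTCC, 33 nt: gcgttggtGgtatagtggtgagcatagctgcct
All of them ended at the last bases before the anticodon. The first sequence was listed at 8 genes of GlyCCC and GlyGCC. At chr17.trna113 and chr6.trna317 the lead was narrow, a mean of 76.5 CPM against 66.0 CPM for a 34 nt fragment that ended inside the anticodon. That fragment was the higher of the pair in WT replicate 2 and in NSun2 -/- replicates 1, 3 and 4. The leading fragment of chr3.trna752 and chr4.trna67 had 831, 926, 1359 and 1526 CPM in WT and 728, 390, 297 and 595 CPM in NSun2 -/- skin, with no overlap between the groups. Tested among 3104 read sequences, its log2 fold change of -1.13 (SE 0.41) was not called (edgeR adjusted p = 0.202), and in that test 1.16% were called lower. The other sequences printed here had edgeR adjusted p between 0.463 and 0.918.

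Fragment lengths differed among these tRNAs. The mean 5′ fragment length was 31.1 to 31.8 nt at chr3.trna752 and chr4.trna67 in WT, against 31.9 to 33.4 nt at chr17.trna113 and chr6.trna317 and 32.4 to 32.8 nt at GlyTCC. The anticodon starts at base 34 of the GlyTCC genes and at base 33 of these GlyCCC genes, so the GlyTCC fragments ended at about the same distance from it as those of chr3.trna752 and chr4.trna67. At chr17.trna113 and chr6.trna317, fragments of 34 nt made up 15.1% to 36.6% of WT counts and ended inside the anticodon. The length ranges of the genotypes overlapped in every group, and for GlyTCC they met at 32.8 nt.

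Mature tRNA of all isoacceptors together took 6.56% to 9.44% of WT counts and 1.86% to 5.06% of NSun2 -/- counts. The mature GlyCCC level was 130, 84.3, 41.4 and 37.5 CPM in WT and 31.9, 4.82, 19.8 and 35.4 CPM in NSun2 -/- skin. The groups did not overlap, but the WT libraries were spread widely, and the log2 fold change of -0.93 (SE 0.42) was not called (edgeR adjusted p = 0.176). Mature GlyTCC stood at 305, 234, 102 and 147 CPM in WT and 147, 25.3, 67.9 and 96.8 CPM in NSun2 -/- skin, with a log2 fold change of -0.48 (SE 0.32, edgeR adjusted p = 0.329). Of the 17 isoacceptors tested, 0% were called in either direction by edgeR or DESeq2, 4 were lower and 0 higher at an unadjusted edgeR p under 0.05, and their median log2 fold change was -0.20. All mature counts of chr3.trna752 and chr4.trna67 were listed at chr3.trna752.

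The 3′ CCA fragments of the GlyCCC groups were tested in the same way, with no test of the difference between groups. Listed at chr3.trna752, they stood at 93.2, 178, 96.6 and 107 CPM in WT and at 21.8, 10.3, 21.6 and 20.6 CPM in NSun2 -/- skin. The groups were far apart, and the log2 fold change of -1.19 (SE 0.21) was called lower with an edgeR adjusted p of 0.00637, in a test that called 4.41% of 68 groups lower and 2.94% higher. This call held with each library left out in turn, with fold changes between -1.28 and -1.07. It cannot be assigned to chr3.trna752 alone, although only that gene had such counts listed. Fragments of this length do not reach base 9, the only base that separates chr3.trna752 from chr3.trna287 and chr3.trna755. Those that miss base 38 are also the same at chr4.trna67. At chr17.trna113 and chr6.trna317 the level was 644, 541, 175 and 228 CPM in WT and 137, 39.0, 120 and 332 CPM in NSun2 -/- skin, and the overlapping groups gave a log2 fold change of 0.05 (SE 0.42, edgeR adjusted p = 0.962). GlyTCC 3′ fragments stood at 629, 584, 306 and 635 CPM in WT and at 212, 31.9, 72 and 147 CPM in NSun2 -/- skin, with no overlap. TMM scaling, under which the median isoacceptor was at 0.06, left a log2 fold change of -0.87 (SE 0.32) that was not called (edgeR adjusted p = 0.0948), where 8.11% of 37 isoacceptors were called lower and 10.8% higher. Scaled to all tRNA-seq counts instead, the median of all isoacceptors was -1.56 and GlyTCC was at -2.22, with 21 of 37 isoacceptors called lower and 0 higher. In the fit over groups, chr3.trna752 was at -2.68, and chr17.trna113 and chr6.trna317 turned to -1.34 and were called lower as well (edgeR adjusted p = 0.0476). The median of that fit was -1.5, and 29 of 69 groups were called lower and 0 higher.

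Ratios within a library compare the isoacceptors without scaling. The log2 ratio of GlyCCC to GlyTCC 5′ fragments was 7.15, 6.34, 7.17 and 6.86 in WT and 7.83, 7.22, 6.90 and 7.94 in NSun2 -/- skin. The groups overlapped, and the difference of 0.60 gave p = 0.114 in an exact two-sided permutation test (Benjamini-Hochberg 0.183 over 8 such tests, whose smallest possible p is 0.0286). With the sequences of 1 isoacceptor only, the difference reversed to -0.26. The log2 ratio of mature GlyCCC to GlyTCC was -1.23, -1.47, -1.30 and -1.98 in WT and -2.20, -2.39, -1.78 and -1.45 in NSun2 -/- skin, a difference of -0.46 (exact permutation p = 0.171, adjusted 0.196). The log2 ratio of 5′ fragments to mature tRNA differed by 1.58 for GlyCCC (exact permutation p = 0.143, adjusted 0.19) and by 0.52 for GlyTCC (exact permutation p = 0.629). For GlyTCC the 2 kinds of read were near parity, with log2 ratios of -1.05 to 0.78 in WT, while for GlyCCC the fragments led with 7.33 to 9.46. Counted by sequences of 1 isoacceptor only, GlyCCC had WT log2 ratios of 4.89 to 7.59 and a difference of 0.72 (exact permutation p = 0.429).

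The variation of the 5′ fragment level over the 8 libraries, each isoacceptor centred on its mean, placed GlyGCC (root mean square log2 difference 0.10), LysCTT (0.18) and SeC(e)TCA (0.22) nearest to GlyCCC among 40 others. The first of these shares most of its counted sequences with GlyCCC. GlyTCC was at rank 25 with 0.49. Nearest to GlyTCC were ProCGG (0.28), LysTTT (0.33) and LeuTAA (0.34).

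Position 9 of the fragments was examined after the mismatches there had been seen, so its values are given without a test. At chr3.trna752 and chr4.trna67, 18.5%, 20.0%, 19.0% and 21.9% of WT counts and 20.7%, 23.4%, 23.8% and 21.8% of NSun2 -/- counts had another base than the gene. Most of it was G9C, at 15.1% to 18.7% of WT counts. At chr3.trna287 and chr3.trna755 the share was 50.3% to 54.6% in WT and 42.2% to 52.2% in NSun2 -/- skin, mostly A9C. Reads with C at position 9 are equally far from the genes with G and those with A there, so their division between these genes is not a measurement. No fragment of chr17.trna113 and chr6.trna317 differed from the gene at position 9 in any library.

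**Figure D3:**
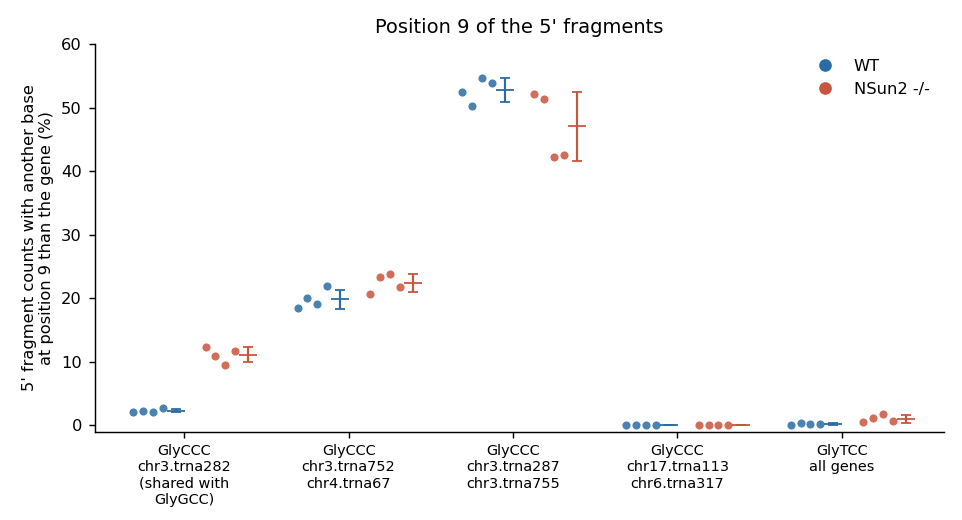
Share of 5′ fragment counts with another base than the gene at position 9 (percent), 1 point per library; the bar marks the mean and the whiskers the SD over 4 libraries. In the fragments that chr3.trna282 shares with GlyGCC the mean share was 2.30% in WT and 11.1% in NSun2 -/- libraries.

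In the fragments listed at chr3.trna282 the share was 2.07%, 2.28%, 2.15% and 2.71% in WT and 12.3%, 10.9%, 9.49% and 11.7% in NSun2 -/- skin. The groups were widely separated, and the same values were found at chr1.trna1392 of GlyGCC, which shares these sequences (2.13% to 2.73% in WT and 9.52% to 12.4% in NSun2 -/- skin). A GlyGCC group with other first bases, that of chr1.trna702, had 0.51% to 0.781% in WT and 6.03% to 7.28% in NSun2 -/- skin. The rise was thus not confined to the sequences listed at chr3.trna282. At chr3.trna282 the changes were mostly G9C, at 1.01% to 1.31% in WT and 5.48% to 7.02% in NSun2 -/- skin, and G9A, at 0.676% to 0.920% and 3.42% to 4.73%. In GlyTCC fragments, with 1294 to 5308 counts per library, the share was at most 0.35% in WT and 0.437% to 1.79% in NSun2 -/- skin. These groups did not overlap either, but the shares were small. At the other positions among the first 25, the highest share in any library was 5.95% for GlyTCC, above all its values at position 9. It was 3.28% in the fragments listed at chr3.trna282 and 9.18% at chr3.trna752 and chr4.trna67, the highest of these groups.

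RNA bisulphite sequencing turns unmethylated cytosines into T, and the share of reads that keep a C is read as methylation. At positions 48 to 50, GlyCCC had 16 cytosines with enough reads in 6 genes, and GlyTCC 9 in 3 genes. Each cytosine weighted equally, GlyCCC stood at 84.8%, 86.4%, 83.5% and 85.1% in WT and at 55.6%, 59.1%, 50.1% and 50.6% in NSun2 -/- skin. GlyTCC stood at 96.0%, 98.4%, 97.0% and 97.8% in WT and at 60.7%, 50.5%, 9.04% and 34.9% in NSun2 -/- skin. In both isoacceptors all NSun2 -/- libraries were below all WT libraries. The mean difference was -31.1 percentage points for GlyCCC and -58.5 for GlyTCC, each with the smallest possible p of 0.0286 in the exact permutation test (adjusted 0.0571 over 8 tests). Leaving out each library in turn gave -32.9 to -29.9 points for GlyCCC and -65.8 to -48.6 for GlyTCC. chrX.trna121 entered 6 of the 8 libraries, and with cytosines read in every library only, the GlyTCC difference was -57.1 points.

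The difference between the isoacceptors also changed. GlyCCC minus GlyTCC was -11.1, -12.0, -13.4 and -12.7 points in WT and -5.12, 8.57, 41.0 and 15.6 points in NSun2 -/- skin. GlyCCC was the less methylated in every WT library and the more methylated in 3 of 4 NSun2 -/- libraries, and the difference between genotypes of 27.3 points also reached the smallest exact permutation p of 0.0286 (adjusted 0.0571). This order depended on the averaging. With the reads of all sites pooled, GlyCCC minus GlyTCC in NSun2 -/- skin was -13.9, -13.4, 25.0 and -10.2 points, so that GlyCCC was the less methylated in 3 of 4 libraries. NSun2 -/- replicate 3 carried the largest gap, and without it the difference was 18.7 points.

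The cytosines 5′ of the anticodon in the same genes, where these enzymes are not known to act, were taken as background. For GlyCCC this background was 1.32%, 1.87%, 1.47% and 3.14% in WT and 5.57%, 13.6%, 0.676% and 4.40% in NSun2 -/- skin. For GlyTCC it was 20.5%, 17.6%, 22.2% and 40.0% in WT and 61.7%, 54.8%, 0.369% and 38.7% in NSun2 -/- skin. The GlyTCC background thus varied with the level at 48 to 50 in the NSun2 -/- libraries. After subtraction of the background, NSun2 -/- libraries held 50.1%, 45.5%, 49.4% and 46.2% at GlyCCC and -0.991%, -4.30%, 8.67% and -3.75% at GlyTCC, against 82.0% to 84.6% and 57.8% to 80.8% in WT. GlyCCC minus GlyTCC was then 3.73 to 24.2 points in WT and 40.7 to 51.0 points in NSun2 -/- skin, so GlyCCC was the higher in both genotypes, and the difference between genotypes was 37.0 points.

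Cytosines on the other side, 3′ of position 50 in the T arm and acceptor stem, were far less converted, and this comparison was chosen after seeing the data. The 43 such cytosines of the 6 GlyCCC genes stood at 49.3%, 48.9%, 45.8% and 50.2% in WT and at 59.7%, 61.6%, 51.6% and 56.9% in NSun2 -/- skin. At C56 of chr3.trna752 and C61 of chr3.trna282 the NSun2 -/- means were 58.9% and 91.2%. For GlyTCC the 21 cytosines stood at 30.5% to 49% in WT and at 57.8%, 52.6%, 4.87% and 44.4% in NSun2 -/- skin. Less this level, positions 48 to 50 held -6.31% to -1.51% at GlyCCC and -9.48% to 4.17% at GlyTCC in NSun2 -/- skin, against 34.9% to 37.8% and 48.8% to 65.4% in WT. What remained at GlyCCC in NSun2 -/- skin thus lay above the cytosines 5′ of the anticodon and not above those 3′ of position 50. The loss itself was present with either subtraction, and with the second it was -40.0 points for GlyCCC and -60.2 for GlyTCC, each with the smallest possible exact permutation p of 0.0286.

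**Figure D4:**
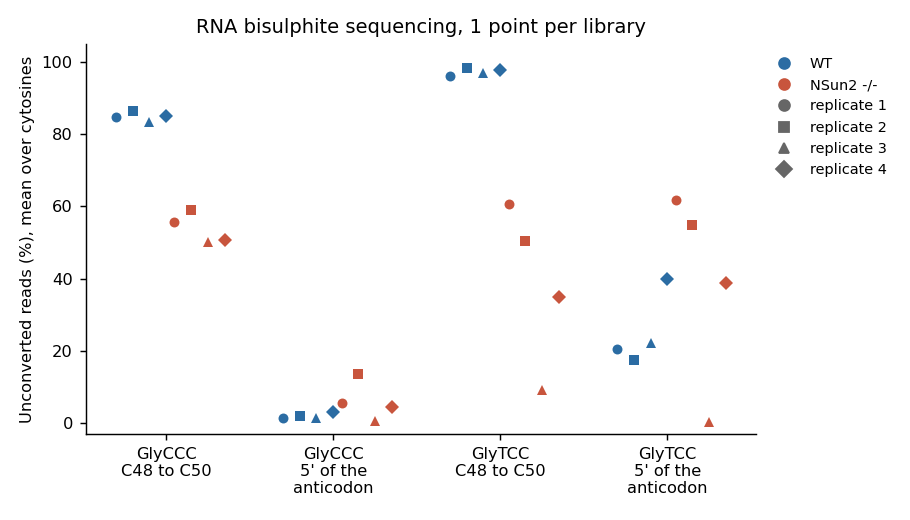
Percent of unconverted reads averaged over the cytosines at positions 48 to 50 and over the cytosines 5′ of the anticodon, for GlyCCC and GlyTCC, 1 mark per library with the shape giving the replicate number. In the NSun2 -/- libraries GlyTCC had 60.7%, 50.5%, 9.04% and 34.9% at 48 to 50 beside 61.7%, 54.8%, 0.369% and 38.7% 5′ of the anticodon, and GlyCCC had 50.1% to 59.1% beside at most 13.6%.

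In the reads listed at single genes of GlyCCC, the cytosine that kept its C differed. At chr3.trna752, C49 fell from 67.5%, 81.0%, 80.0% and 88.1% in WT to 13.3%, 19.6%, 7.22% and 5.62% in NSun2 -/- skin, a loss called with edgeR's quasi-likelihood test over all cytosines (adjusted p = 2e-09). Its neighbours C48 and C50 were also called, but kept 55.4% to 68.9% and 51.1% to 67.0% in NSun2 -/- skin. chr3.trna755 had the same pattern at other levels: C49 went from 42.9% to 56.0% in WT to 5.88% to 14.3% in NSun2 -/- skin (edgeR adjusted p = 0.0599), while C48 kept 62.2% to 89.5% and C50 62.5% to 88.9%. In chr4.trna67, which differs from chr3.trna752 at a single base, C49 did not stand out, with 74.2% to 86.7% in WT and 51.6% to 83.3% in NSun2 -/- skin, and none of its 3 sites was called. Only base 38 separates chr4.trna67 from chr3.trna752, and only base 9 separates chr3.trna755 from it. How bisulphite reads were placed among these genes was not tested.

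**Figure D5:**
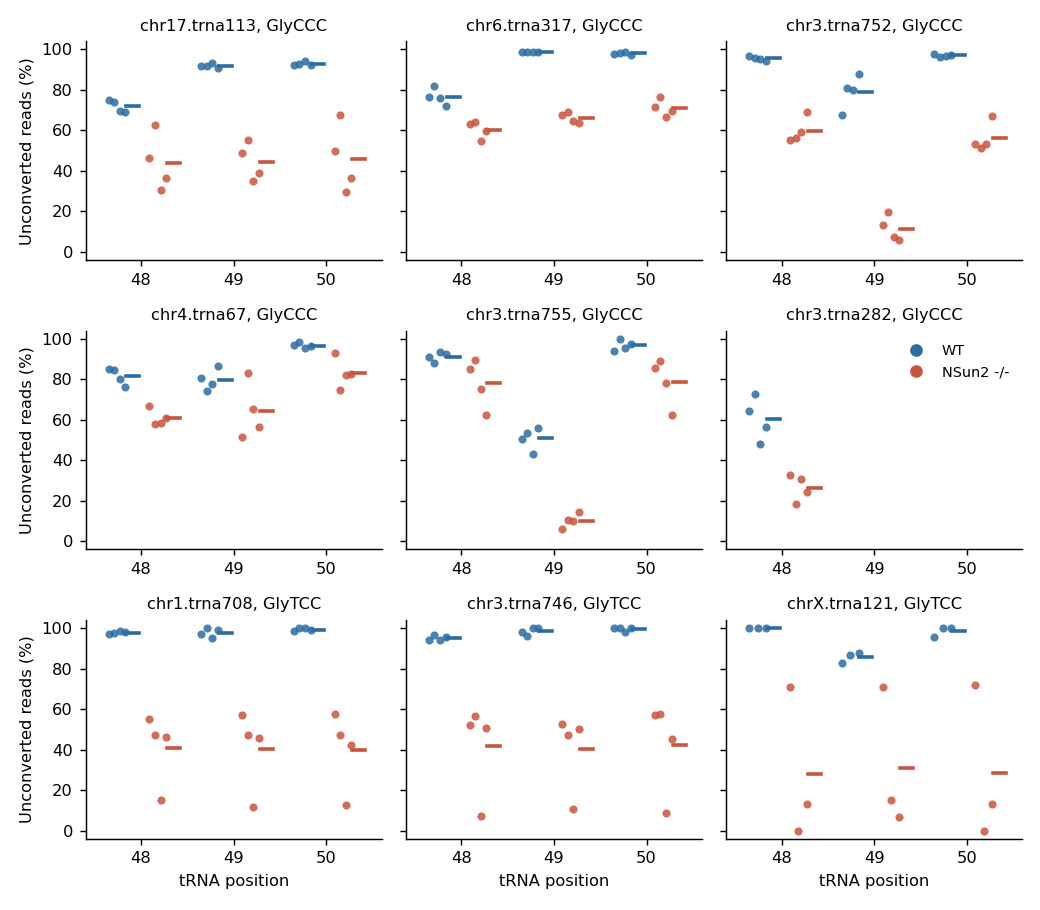
Percent of unconverted reads at positions 48, 49 and 50 of the 6 GlyCCC and 3 GlyTCC genes with enough reads, 1 point per library, with the genotype mean as a short bar; chrX.trna121 had values in 3 libraries of each genotype, and chr3.trna282 has a cytosine only at 48. At chr3.trna752 and chr3.trna755 position 49 had NSun2 -/- means of 11.4% and 10.2%, and 48 and 50 had NSun2 -/- means of 56.2% to 78.9%. The cytosines 3′ of position 50, not drawn, had NSun2 -/- means of 43.5% and 76.5% in these genes.

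In the form transcribed from chr17.trna113 and chr6.trna317, C49 and C50 were called lower in both genes. At chr6.trna317, C49 went from 98.7% to 99.0% in WT to 63.6% to 69.0% in NSun2 -/- skin (edgeR adjusted p = 3.66e-09), and C50 kept 66.8% to 76.3% in NSun2 -/- skin. At the identical chr17.trna113, C49 went from 90.7% to 93.1% in WT to 34.9% to 55.2% in NSun2 -/- skin (edgeR adjusted p = 0.000259). The NSun2 -/- ranges of the identical genes did not overlap at C49, and how reads were placed between them was not tested. At chr3.trna282, C48 went from 64.6%, 72.7%, 47.9% and 56.7% to 32.5%, 18.3%, 31% and 24.3% (edgeR adjusted p = 0.0372), with at least 2244 reads in each library. The number of reads was uneven along this locus, with 2417 to 31369 at C34, 280 to 5172 at C35 and 439 to 6139 at C38. Whether the reads listed at chr3.trna282 came from this gene was not tested, here or at its C38, C61 and C72.

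In the GlyTCC genes C48, C49 and C50 moved together. At chr1.trna708, C50 stood at 98.5%, 100%, 100% and 99.2% in WT and at 57.7%, 47.1%, 12.7% and 42.6% in NSun2 -/- skin (edgeR adjusted p = 1.35e-09). The identical chr3.trna746 had 100%, 100%, 98.1% and 100% at C50 in WT and 57.3%, 57.7%, 8.93% and 45.1% in NSun2 -/- skin (edgeR adjusted p = 2.04e-08). Its C48 and C49 were also lowest in NSun2 -/- replicate 3, with 7.02% and 10.5%, against 47.2% to 56.9% in the other NSun2 -/- libraries. chrX.trna121 had only 12 to 38 reads at its sites and no value in WT replicate 2 and NSun2 -/- replicate 2.

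Over all member cytosines, 17 of 176 were called lower, against 0.147% of the 122736 tested, and 0 higher, against 0.114%. Of the 17, 8 were among the 16 GlyCCC sites at 48 to 50, and 8 among the 9 GlyTCC sites. All NSun2 -/- libraries were below all WT libraries at 14 of the 16 GlyCCC sites and at 9 of 9 GlyTCC sites, against 0.725% of all cytosines tested. The remaining called cytosine was C72 of chr3.trna282, in the acceptor stem, with 93.3%, 49.1%, 38.5% and 91.8% in WT and 15.4%, 64.5%, 8.21% and 42.3% in NSun2 -/- skin (edgeR adjusted p = 0.00402). Its groups overlapped. limma on the logit of the methylation level called 14 lower and 0 higher, against 0.102% and 0.00896% of all cytosines. At an unadjusted edgeR p under 0.05, 19 member cytosines were higher by 10 points or more. The 0 higher did not hold without NSun2 -/- replicate 2, which gave 4, or without NSun2 -/- replicate 3, which gave 8.

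C38, the Dnmt2 site, was present with enough reads in 4 GlyCCC genes. The located GlyTCC genes have A at this position, and chr17.trna113 and chr6.trna317 have T. At chr3.trna282 it stood at 81.1%, 88.8%, 81.6% and 79.8% in WT and at 75.9%, 85.9%, 81.0% and 83.1% in NSun2 -/- skin, and at chr3.trna752 at 11.5% to 22% in WT and 12.3% to 20.4% in NSun2 -/- skin. These groups overlapped. At chr4.trna67 it was 21.6% to 32.9% in WT and 18.8% to 19.2% in NSun2 -/- skin, and at chr3.trna755 16.7% to 25.0% and 0% to 12.1%, without overlap but not called. The mean over the 4 genes was 37.3%, 40.9%, 34.5% and 32.8% in WT and 28.8%, 32.4%, 32.2% and 30.0% in NSun2 -/- skin, a difference of -5.51 points (exact permutation p = 0.0286, adjusted 0.0571). With the reads of all 4 sites pooled, which lets the deeply covered chr3.trna282 dominate, the difference reversed to 9.03 points (exact permutation p = 0.114).

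C34, the first base of the GlyCCC anticodon, was low in the chromosome 3 and 4 genes, at most 1.45% in WT and 8.89% in NSun2 -/- skin. At chr17.trna113 it was 3.30% to 12.9% in WT and 1.39% to 42.6% in NSun2 -/- skin, and at chr6.trna317 3.31% to 10.1% and 2.20% to 39.4%. NSun2 -/- replicate 2, which had the highest background, was the highest library at C34 of both genes. Outside 48 to 50 the groups were apart at 18 of 108 GlyCCC cytosines and at 0 of 43 GlyTCC cytosines, against 4.22% of all cytosines tested, and the NSun2 -/- libraries were the higher at all but 4 of these, namely C61 of chr3.trna282, C62 of chr6.trna317 and C38 of chr3.trna755 and chr4.trna67. C56 of chr3.trna752, for example, had 13.3% to 37.3% in WT and 55.6% to 68.1% in NSun2 -/- skin (edgeR adjusted p = 0.489), and none of these cytosines was called.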

How the data were processed

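Per the labels, the authors processed the reads with Bowtie, DESeq and Bismark 0.7.6 against mm9. For Pol III ChIP-seq and tRNA-seq the authors deposited whole-number counts per tRNA gene locus and per read sequence, not scaled, with multiply matching reads divided among loci. For bisulphite sequencing they deposited the percent of unconverted reads and both read counts per cytosine, counted from 0. The study's methods give another mouse build for this assay, but 100% of the listed positions fell on a C or G of mm9.

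The members and lists were chosen with earlier results of these data known. Read sequences were placed on the located genes with at most 4 mismatches. Fragments and mature tRNAs were tested with edgeR 4.0.16 (quasi-likelihood, TMM, filterByExpr, all isoacceptors, genes or groups together) and Benjamini-Hochberg adjustment under 0.05, with DESeq2 1.42.0 as an alternative. A cytosine entered if 3 or more WT and 3 or more NSun2 -/- libraries had 10 reads or more, and its converted and unconverted reads were put to the same edgeR test, with a minimum difference of 10 percentage points, and to limma 3.58.1. Single values per library were put to an exact permutation test (two-sided, 70 assignments). Pol III ratios used a pseudocount of 1 read. The tests were tested on simulated data, and R 4.3.3 and Python 3.11.15 were used.

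Genes were named where Pol III bound them in WT or where they held fragment or mature counts, and cytosines where they lay at 34, 38 or 48 to 50 or were called. The 3 leading fragments of each group were followed. Counts of a sequence were not independent reads, since amplification was not controlled by molecular tags, so intervals on single counts were not given. Genes left without a located sequence entered the Pol III counts only.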

Additional observations from a re-analysis of the deposited data

Results flagged for a closer look

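Among 134 sets of 4 libraries examined, 8 held a library far from the other 3, and chance alone marks about 1 in 20. WT replicate 3 had the lowest GlyTCC 3′ CCA level of the WT libraries, 306 CPM. For chr3.trna752 and chr4.trna67, WT replicate 2 had the highest 3′ CCA level of its genotype, 178 CPM, and NSun2 -/- replicate 2 the lowest, 10.3 CPM.

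NSun2 -/- replicate 3 kept 7.02% at C48 and 10.5% at C49 of chr3.trna746, far below the other NSun2 -/- libraries, and in the same library the GlyTCC cytosines 5′ of the anticodon stood at 0.369%. WT replicate 3 had 98.1% at C50 of chr3.trna746 where the other WT libraries had 100%. NSun2 -/- replicate 4 had the highest value of its genotype at C50 of chr3.trna752, 67.0%, and WT replicate 2 the highest at C38 of chr4.trna67, 32.9%.

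The change at positions 48 to 50 differed between the isoacceptors by 27.34 percentage points (exact two-sided permutation p = 0.0286, the smallest that 4 against 4 can give, adjusted 0.0571), with GlyTCC losing more. The direction was the same with each library left out in turn.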

How the results depend on the processing

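The number of copies that share a sequence, the scaling and single libraries decided several calls, and the causes were not tested. With sequences of 1 isoacceptor only, the 5′ fragment log2 fold change was -1.20 for GlyCCC and -1.0 for GlyTCC, both called, though the GlyTCC counts themselves did not change. That counting put the log2 ratio of GlyCCC to GlyTCC at -0.26. Combined with all tRNA-seq counts as library size, a setting chosen after seeing the data, the values were -1.07 and -0.82, and for 3′ CCA fragments -1.54, -2.13 and, at chr17.trna113 and chr6.trna317, -1.34. That library size alone gave -0.82 for GlyTCC 5′ fragments and -1.55, -2.22 and -1.34 for the 3′ CCA fragments of GlyCCC, GlyTCC and chr17.trna113 with chr6.trna317. DESeq2 called GlyTCC lower for 5′ (-0.81) and 3′ CCA fragments (-0.92), and fragments of 28 to 36 nt gave -0.86 for GlyTCC. At chr3.trna282 the 5′ value was -4.24 with sequences of 1 isoacceptor only (-4.41 with the other library size), 0.11 without a filter and 0.10 without mismatches, and 3′ fragments from 18 nt gave -0.32 at chr17.trna113 and chr6.trna317. C38 of GlyCCC was 9.03 points with pooled reads and -7.92 after subtraction of the background. Pol III ratios scaled to bound genes were 0.08 (GlyCCC) and -0.15 (GlyTCC), 0.21 for GlyTCC less input, and 0.23 for GlyCCC over all its genes, bound or not.

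With each library left out in turn, 5′ fragments ranged from -0.99 to -0.51 for GlyTCC (called without NSun2 -/- replicate 2 or 3), -0.14 to 0.18 for chr3.trna282 and -0.03 to 0.68 for chr17.trna113 and chr6.trna317. The 3′ CCA fragments ranged from -0.48 to 0.19 for GlyCCC, -1.11 to -0.66 for GlyTCC (called without NSun2 -/- replicate 1) and -0.48 to 0.47 for chr17.trna113 and chr6.trna317. The log2 ratio of GlyCCC to GlyTCC 5′ fragments ranged from 0.41 to 0.79 (exact permutation p = 0.0286 without NSun2 -/- replicate 3), and that of GlyTCC 5′ fragments to mature tRNA from -0.10 to 0.96. Methylation differences ranged from 18.7 to 34.1 points between the isoacceptors (p = 0.0571 by exact permutation without any one WT library) and from -6.71 to -3.99 at C38 (likewise without any one NSun2 -/- library). Cytosines called higher ranged from 0 to 8, and those called lower from 13 to 19.

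Same-numbered libraries did not deviate together (correlations -0.53 to 0.13 in tRNA-seq and -0.15 to 0.31 in bisulphite sequencing), so the numbers were not treated as pairs. With the replicate block 2 of 87 groups of 5′ fragments were called, and chr3.trna752 with chr4.trna67 (-1.25) and the GlyTCC group (-0.85) were not. The 3′ CCA value of GlyTCC was -0.91 and called, that of chr17.trna113 and chr6.trna317 was -0.02, 16 cytosines were called lower, and the methylation differences of -31.1, -58.5, 27.3 and -5.51 points had p = 0.125 in the exact permutation test, the smallest that 4 pairs allow.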
